A study of Mus musculus with 8 samples.

Results

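The immediate early genes that neuronal activity induces were examined in the hypothalamus (HT) of adult male C3H/HeN mice. The members were 35 genes fixed by symbol, and the arrays held 43 probes for them among 55681 probes in all. The MS group comprised 4 mice that underwent maternal separation combined with chronic unpredictable stress of the dam between PND 2 and 14. The Control group comprised 4 mice without this stress, and each mouse gave 1 array from 200 ng of RNA. Mice of both groups were fasted, deeply anesthetized with isoflurane and then decapitated before the HT was dissected. They had been tested in operant cages for a palatable food reward before, and the interval from the last session is not given in the paper's methods. Mice are named by their group and their number in the labels (MS 5.3, 7.1, 7.2 and 7.6, Control 6.2, 8.2, 8.4 and 8.5). The sources do not explain the first digit of these numbers. Should it mark a litter or a cage, it was shared by 3 mice in each group, and in any case the p-values measure only the spread between these mice.

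Immediate early genes are transcribed within minutes of a stimulus, without the need for newly made protein. In neurons, calcium entry and the MAP kinase cascade act on factors that already sit on the promoters, among them CREB on cyclic AMP response elements (CRE) and serum response factor on CArG boxes. Many of the products are transcription factors, such as the AP-1 factors of the Fos and Jun families and the zinc fingers of the Egr family. Others work at the synapse or switch the signal off again, such as the phosphatases of MAP kinases. In the hypothalamus, Fos is widely used as a mark of neurons that were recently active.

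The promoters of 8 members that the results below turn on are shown first, 7 that hold the CRE half-site and that of Jund, which does not. The sequences are the 250 bases before the gene start in the RefSeq table (GRCm38.p6), 5′ to 3′ on the strand of the gene. Capitals mark the CRE half-site TGACG on either strand, which in Btg2 lies within the full CRE TGACGTCA.

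Fos (chr12:85473640-85473889, plus strand): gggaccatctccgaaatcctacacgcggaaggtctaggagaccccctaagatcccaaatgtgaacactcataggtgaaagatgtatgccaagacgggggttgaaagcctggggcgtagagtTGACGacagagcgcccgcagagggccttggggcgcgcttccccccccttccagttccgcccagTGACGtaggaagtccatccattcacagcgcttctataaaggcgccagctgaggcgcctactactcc
Nr4a1 (chr15:101266596-101266845, plus strand): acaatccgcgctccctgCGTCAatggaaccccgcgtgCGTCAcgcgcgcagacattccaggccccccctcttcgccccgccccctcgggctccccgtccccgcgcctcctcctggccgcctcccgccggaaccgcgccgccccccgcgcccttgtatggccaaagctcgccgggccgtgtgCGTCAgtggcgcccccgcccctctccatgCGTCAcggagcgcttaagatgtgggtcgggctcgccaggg
Npas4 (chr19:4989972-4990221, minus strand): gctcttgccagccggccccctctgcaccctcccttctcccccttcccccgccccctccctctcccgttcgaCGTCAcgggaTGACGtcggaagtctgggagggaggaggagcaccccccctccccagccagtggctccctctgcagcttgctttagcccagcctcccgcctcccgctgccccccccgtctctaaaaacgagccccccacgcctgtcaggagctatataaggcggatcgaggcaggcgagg
Btg2 (chr1:134079156-134079405, minus strand): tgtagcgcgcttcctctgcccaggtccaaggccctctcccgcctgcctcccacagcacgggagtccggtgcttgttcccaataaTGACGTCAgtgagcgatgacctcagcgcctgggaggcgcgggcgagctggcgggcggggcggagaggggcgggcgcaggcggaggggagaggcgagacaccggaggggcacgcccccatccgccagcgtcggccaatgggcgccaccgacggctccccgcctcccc
Junb (chr8:84978749-84978998, minus strand): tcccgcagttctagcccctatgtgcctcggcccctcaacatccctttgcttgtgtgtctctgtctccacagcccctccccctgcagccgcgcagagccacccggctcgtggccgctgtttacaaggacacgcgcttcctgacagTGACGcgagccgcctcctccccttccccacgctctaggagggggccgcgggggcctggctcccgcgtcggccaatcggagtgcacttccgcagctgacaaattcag
Fosb (chr7:19310046-19310295, minus strand): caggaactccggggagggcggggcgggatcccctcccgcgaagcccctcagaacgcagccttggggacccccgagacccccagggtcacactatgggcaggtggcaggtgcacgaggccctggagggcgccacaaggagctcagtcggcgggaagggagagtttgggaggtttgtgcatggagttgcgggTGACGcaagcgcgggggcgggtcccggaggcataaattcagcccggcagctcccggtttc
Atf3 (chr1:191183334-191183583, minus strand): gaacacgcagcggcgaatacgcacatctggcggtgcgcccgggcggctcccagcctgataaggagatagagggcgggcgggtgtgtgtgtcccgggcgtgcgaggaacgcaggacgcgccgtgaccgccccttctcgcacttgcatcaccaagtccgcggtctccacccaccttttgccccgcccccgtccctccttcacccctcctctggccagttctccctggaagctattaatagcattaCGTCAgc
Jund (chr8:70697489-70697738, plus strand): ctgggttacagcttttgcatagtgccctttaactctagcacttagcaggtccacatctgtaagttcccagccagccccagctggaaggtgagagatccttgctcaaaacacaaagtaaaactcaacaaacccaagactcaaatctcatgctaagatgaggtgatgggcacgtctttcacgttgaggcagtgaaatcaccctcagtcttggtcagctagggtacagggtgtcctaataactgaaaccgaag

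The table held a promoter for 27 of the 35 members, and Egr1, Arc and Ier2 were among those without one. The half-site TGACG was found in 17 of these 27 genes (63%), against 17.8% of all 32851 promoters of the same length, searched on both strands. The full CRE, which contains the half-site, was found in Btg2, Dusp1 and Maff (11.1%), against 1.55% of all promoters. Members with several promoters in the table counted once if any of them had the letters, whereas the shares of all promoters count each promoter singly. The units are thus unlike, and a member with several promoters had more chances of a match. Nr4a1 held 4 half-sites, Fos and Npas4 held 2 each, and Junb, Fosb and Atf3 held 1 each. The half-site nearest to the start lay 66 bases before it in Fos, 40 in Nr4a1, 169 in Npas4 and 60 in Fosb. The letters TATAAA were found in 5 members, among them Fos, and in 12.4% of all promoters. CArG boxes were found in Egr2 and Dusp5 (7.41%), against 1.47% of all promoters, and the AP-1 motif TGANTCA in 0 members, against 6.75%. A match in these letters is a description and was not tested as a site.

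The arrays had 61.2% to 69.5% of the probes well above background in MS mice and 62.7% to 71.1% in Control mice. A level is the log2 of the processed intensity minus the 75th percentile of that array, so that 0 is the brightness of that percentile and dimmer probes are negative. Levels of different probes cannot be set against each other. The 75th percentile itself was 567 in MS 7.6 and 853 to 1018 in the other 7 mice. All 8 arrays lay on 1 slide with 2 mice of each group in each of its 2 rows, and 0 spots were saturated. All 10 hypothalamic markers listed were measured, and their summed level was 8.38 to 8.92 in MS mice and 8.69 to 8.91 in Control mice. The 6 pituitary markers measured summed to 4.27 to 4.87 in MS mice and to 4.14 to 8.02 in Control mice, of which Control 6.2 had 8.02 and the others at most 5.05, and 0 of the 6 were higher in MS mice on average. Without Control 6.2, again 0 members were called.

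A member was tested where at least 4 of the 8 arrays had a probe well above background. This left 31 members, each of which was well above background on all 8 arrays with the brightest probe, which stood for its gene. Fosl1 and Egr3 were above background on 1 array of each group. Nr4a3, an orphan nuclear receptor, and Dusp5, a phosphatase of ERK, were above background on 0 of the 8 arrays, so these 4 genes have only a bound and no fold change. In a dissected tissue, fewer active cells and less RNA per cell cannot be told apart.

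**Figure D1:**
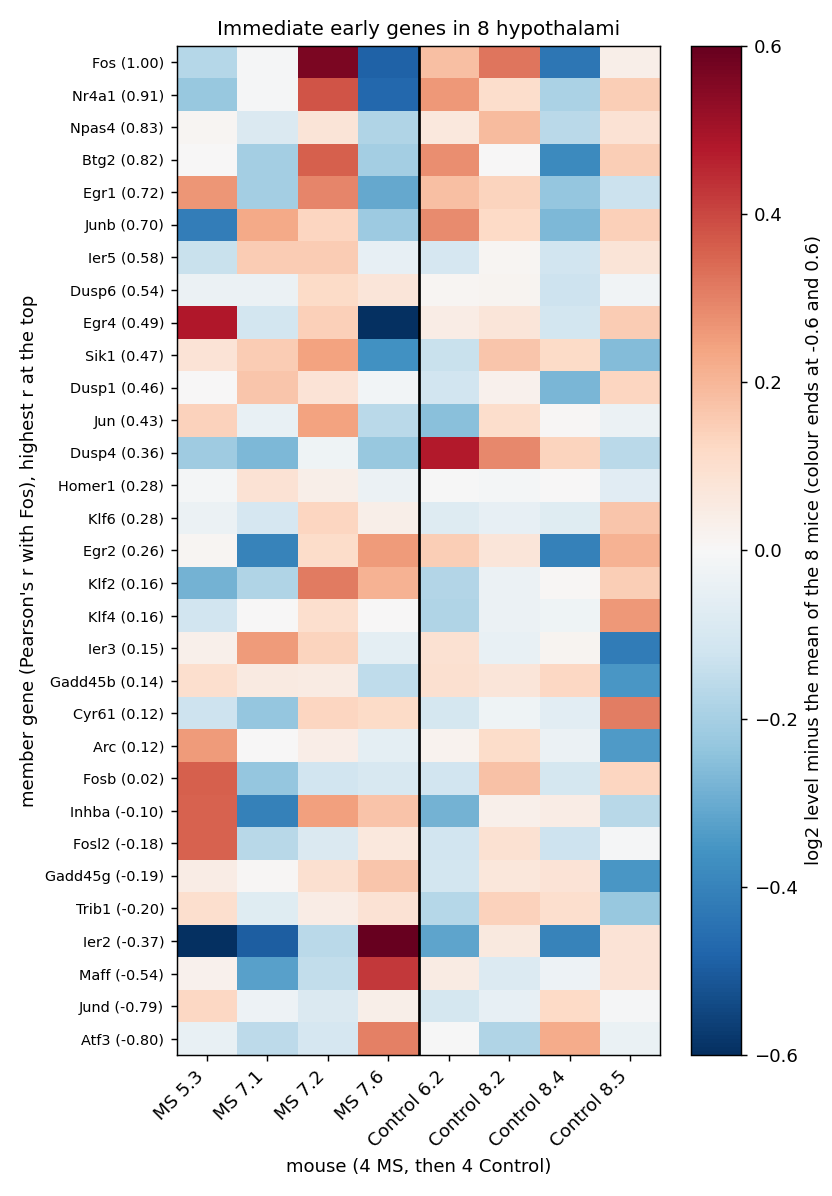
Level of each of the 31 members (rows, ordered by Pearson's r with Fos, in parentheses) in each mouse (columns, 4 MS mice left of the line and 4 Control mice right of it) as the log2 difference from the mean of the 8 mice. MS 7.2 is high and MS 7.6 and Control 8.4 are low in the top rows, while the columns of the 2 groups show no common color.

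The first question was whether MS mice differed from Control mice in the levels of these genes. None of the 31 members was called by limma at an adjusted p under 0.05. Neither was any of the 37313 probes tested (0%). By the unadjusted limma test 1 member, Dusp4, had a p under 0.05, where 3.3% of all probes had one. The median log2 fold change of the members, MS minus Control, was 0.02, against 0.01 for all 17309 genes tested. Of the members, 18 were above 0 (58.1%) and 13 below, where 56.4% of all genes tested were above 0. The groups overlapped in all 31 members, where 2.03% of all probes had groups that did not overlap. The 95% interval of the difference lay within 1.5-fold either way for 28 of the 31 members and within 2-fold for 30. The one whose interval reached beyond 2-fold was Ier2.

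**Figure D2:**
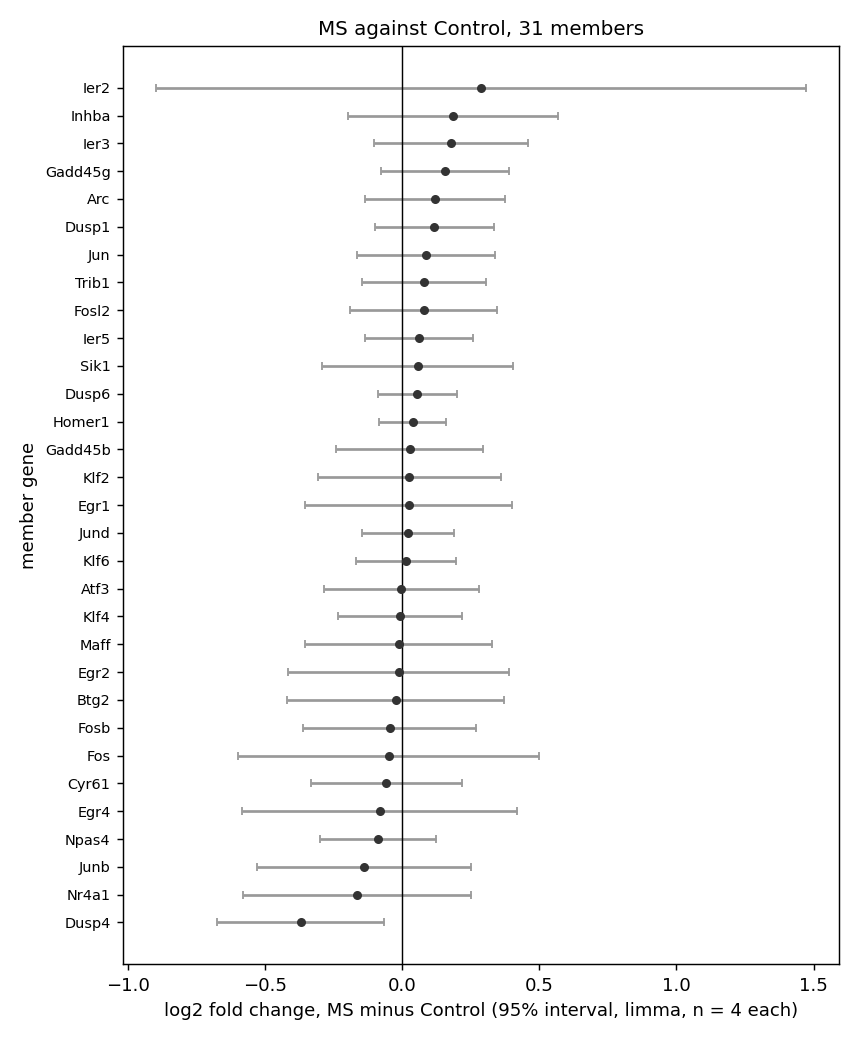
Log2 fold change of each tested member, MS minus Control (points) with the 95% interval of limma (bars, n = 4 mice each), ordered from the highest at the top. The values run from -0.37 for Dusp4 to 0.29 for Ier2, and the interval of Dusp4 alone leaves out 0.

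Among the AP-1 factors, Fos was spread widely in both groups. Its level was -0.79, -0.63, -0.05 and -1.10 in MS 5.3, 7.1, 7.2 and 7.6, against -0.44, -0.30, -1.06 and -0.59 in Control 6.2, 8.2, 8.4 and 8.5. The highest and the lowest mouse were both MS mice, and the Control mice lay between them. The means were -0.64 ± 0.44 in MS mice and -0.60 ± 0.33 in Control mice (SD, n = 4 each), a difference of -0.05 with a 95% interval of -0.60 to 0.50 (limma, adjusted p = 0.993). It was 0.26 in slide row 1 and -0.35 in slide row 2, each with 2 mice of a group. The lowest and the highest mouse differed 2.07-fold. The array carries 10 spots of the Fos probe (mm9 chr12:86817900-86817959), so the precision of this value within an array is known. The SD over the 10 spots of an array was 0.0469 to 0.1 on the log2 scale, against an SD of 0.36 between the 8 mice. Of the 1821 genes whose mean level lay within 0.5 of that of Fos, 2.53% had an SD between mice at least as large.

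Fosb, which gives rise to the long-lived splice form DeltaFosB, was at -1.67, -2.27, -2.15 and -2.13 in MS 5.3, 7.1, 7.2 and 7.6 and at -2.15, -1.86, -2.14 and -1.90 in Control 6.2, 8.2, 8.4 and 8.5. MS 5.3 stood above the other mice, and the groups overlapped. Junb was at -4.73, -4.09, -4.19 and -4.53 in the same MS mice and at -4.03, -4.20, -4.59 and -4.18 in the same Control mice. Here MS 5.3 was the lowest mouse. The differences were -0.04 (-0.36 to 0.27) for Fosb and -0.14 (-0.53 to 0.25) for Junb, both with 95% intervals of limma. Fosl2, Jun and Jund had differences of 0.08, 0.09 and 0.02. Jund, which cells express without a stimulus, had an SD of 0.0873 between mice. Of the genes at its level, 46.1% had an SD at least as large, so this spread was not unusually small.

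The Egr zinc fingers were as mixed. Egr1 was at 1.26, 0.80, 1.29 and 0.69 in MS 5.3, 7.1, 7.2 and 7.6 and at 1.18, 1.13, 0.77 and 0.87 in Control 6.2, 8.2, 8.4 and 8.5. MS mice 5.3 and 7.2 were above all Control mice and MS 7.6 was below all of them, and the difference was 0.02 (-0.35 to 0.40). Egr4 was at -0.09, -0.68, -0.43 and -1.25 in the MS mice and at -0.53, -0.50, -0.68 and -0.42 in the Control mice, listed as before. The MS mice covered the whole range of 2.23-fold, with an SD of 0.49 in MS mice and 0.11 in Control mice. Egr2 was at -3.55, -3.96, -3.45 and -3.30 in the MS mice and at -3.41, -3.49, -3.96 and -3.35 in the Control mice. MS 7.1 and Control 8.4 shared the low end, and the difference was -0.01 (-0.42 to 0.39).

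Npas4 is a factor that neurons induce upon calcium entry, and Nr4a1 is an orphan nuclear receptor that many cells induce. Npas4 was at 0.48, 0.38, 0.55 and 0.29 in MS 5.3, 7.1, 7.2 and 7.6 and at 0.53, 0.66, 0.31 and 0.56 in Control 6.2, 8.2, 8.4 and 8.5. MS 7.6 and Control 8.4 were the lowest mice, as for Fos. Nr4a1 was at 2.46, 2.68, 3.07 and 2.21 in the MS mice and at 2.95, 2.79, 2.50 and 2.83 in the Control mice. MS 7.2 was again the highest mouse and MS 7.6 the lowest. The differences were -0.09 (-0.30 to 0.12) for Npas4 and -0.16 (-0.58 to 0.25) for Nr4a1. The difference of Nr4a1 was 0.12 in slide row 1 and -0.44 in slide row 2, and those of Egr1 (0.33 and -0.28) and Btg2 (0.37 and -0.41) were likewise positive in row 1 and negative in row 2, as for Fos. Of the 1757 genes with a mean level near that of Nr4a1, 1.08% had an SD at least as large as its 0.28. Atf3, a factor of the cellular stress response, and Maff, a small Maf factor, had differences of -0.00169 and -0.01.

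**Figure D3:**
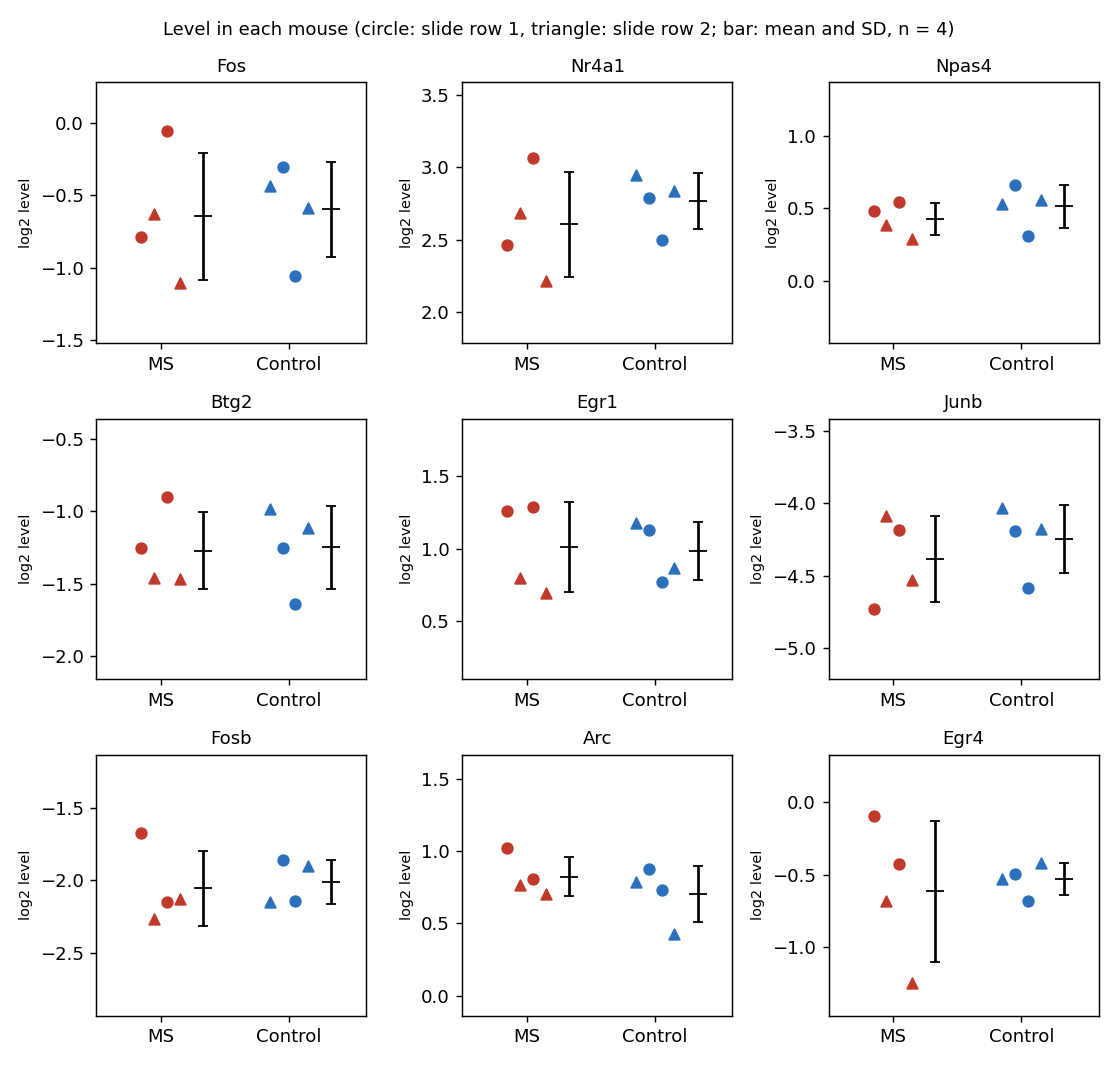
Log2 level of 9 members in each mouse, with 4 MS mice (red) left of 4 Control mice (blue), circles for slide row 1, triangles for slide row 2 and bars for the mean and SD of the group. Every panel spans the same height in log2 units, and the groups overlap in all 9 panels.

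The zinc finger factors Klf2 and Klf4 respond to blood flow in endothelial cells. Klf2 was at 0.02, 0.13, 0.62 and 0.52 in MS 5.3, 7.1, 7.2 and 7.6 and at 0.13, 0.27, 0.32 and 0.46 in Control 6.2, 8.2, 8.4 and 8.5. MS mice held both ends of its range. Klf4 was at 0.15, 0.26, 0.36 and 0.26 in the MS mice and at 0.08, 0.23, 0.24 and 0.52 in the Control mice, with Control 8.5 the highest. The differences were 0.03 (-0.31 to 0.36) for Klf2, -0.00722 (-0.23 to 0.22) for Klf4 and 0.02 (-0.17 to 0.20) for Klf6.

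Members that act at the synapse or outside the cell did not separate the groups either. Arc, a protein of dendrites that controls the uptake of AMPA receptors, was at 1.02, 0.77, 0.80 and 0.71 in MS 5.3, 7.1, 7.2 and 7.6 and at 0.79, 0.87, 0.73 and 0.43 in Control 6.2, 8.2, 8.4 and 8.5. Control 8.5 was the lowest mouse, and the difference was 0.12 (-0.13 to 0.38). Homer1, a scaffold of metabotropic glutamate receptors, had the smallest spread of all members by its brightest probe. Its brightest probe, which the array annotation gives to transcript variant L, was at 0.61, 0.70, 0.66 and 0.58 in the MS mice and at 0.62, 0.61, 0.62 and 0.55 in the Control mice, with an SD of 0.0464 between the 8 mice. The short variant is the one that activity induces, and 3 probes are annotated to variant S, with an SD of 0.11 to 0.18 between the 8 mice. All 3 were lowest in MS 7.6, as was the second probe of variant L, and their differences were -0.13, -0.07 and -0.07. Inhba, a subunit of activins, had a difference of 0.19 (-0.20 to 0.57), and Cyr61, a secreted matrix protein, one of -0.06 (-0.33 to 0.22).

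Of the members that feed back on the signal, Dusp4 came closest to a difference. This phosphatase of MAP kinases was at -3.61, -3.67, -3.43 and -3.63 in MS 5.3, 7.1, 7.2 and 7.6 and at -2.93, -3.11, -3.27 and -3.56 in Control 6.2, 8.2, 8.4 and 8.5. Control 8.5 lay among the MS mice and the other 3 Control mice above them. The difference was -0.37 with an SE of 0.13 and a 95% interval of -0.67 to -0.06 (limma, adjusted p = 0.980). It was -0.21 with normexp and quantile and -0.29 in the authors' table. Without Control 6.2, where Dusp4 was highest, it was -0.27. It was -0.33 in slide row 1 and -0.41 in slide row 2. Of the genes at the level of Dusp4, 22.6% had an SD between mice at least as large.

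Dusp1, which acts on several MAP kinases, was at -0.51, -0.35, -0.43 and -0.53 in MS 5.3, 7.1, 7.2 and 7.6 and at -0.63, -0.49, -0.79 and -0.39 in Control 6.2, 8.2, 8.4 and 8.5. The lowest mice were Control 8.4 and 6.2, and the difference was 0.12 (-0.10 to 0.33). Dusp6, which acts on ERK, had a difference of 0.06 (-0.09 to 0.20). Gadd45g, a growth arrest gene, had the smallest p of the members with a positive difference. It was at 3.80, 3.76, 3.85 and 3.92 in the MS mice and at 3.64, 3.82, 3.84 and 3.41 in the Control mice, and 2 Control mice lay within the range of the MS mice. The difference was 0.16 with an SE of 0.10 (limma, adjusted p = 0.980), and it was -0.00410 in slide row 1 and 0.32 in slide row 2.

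Ier2, a nuclear protein of the early growth response, had the largest spread of the members, and a single mouse lay far above the rest. It was at -2.80 in MS 7.6 and at -5.33, -5.17 and -4.84 in MS 5.3, 7.1 and 7.2, against -5.00, -4.62, -5.08 and -4.60 in Control 6.2, 8.2, 8.4 and 8.5. The difference of 0.29 (-0.90 to 1.47) became -0.29 without MS 7.6. The probe was dim, and 5.21% of the genes at its level had an SD at least as large. The other members of this kind (Ier3, Ier5, Btg2, Trib1, Gadd45b and the kinase Sik1) had differences between -0.02 for Btg2 and 0.18 for Ier3.

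The second question was whether the members varied together from mouse to mouse, whatever the group. Over the 8 mice, Fos was highest in MS 7.2, followed by Control 8.2, 6.2 and 8.5, MS 7.1 and 5.3 and Control 8.4, and lowest in MS 7.6. Of the 30 other members tested, 22 had a Pearson's r with Fos above 0 (73.3%), where 50.2% of all 17308 other genes had one. The median r of the members was 0.21, against 0.0023 for all genes. The members Nr4a1, Npas4, Btg2 and Egr1 had an r over 0.7 (13.3% of 30), where 3.8% of all genes passed it. Atf3 and Jund had an r under -0.7 (6.67%), where 4.18% of all genes passed it. With 8 mice, the exact permutation test adjusted over all genes called 0 members and 0% of all genes at 0.05, and the smallest adjusted p of a member was 0.638. The smallest p that this exact permutation test can give is 2.48e-05. After adjustment over 17308 genes, a gene could pass 0.05 only if several genes stood near that floor together. These values thus describe these 8 mice.

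Nr4a1 followed Fos most closely, with r = 0.91 (exact permutation p = 0.00184) and rho = 0.90 (exact p = 0.00456). Without MS 7.2 and 7.6, the mice farthest from the median of Fos, r was 0.81. Within the groups it was 0.94, that is after each group's mean was subtracted, and within the slide rows 0.92. Npas4 had r = 0.83 (exact p = 0.0121) and rho = 0.86 (exact p = 0.0107), and r was 0.87 without these mice. Btg2, an antiproliferative protein, had r = 0.82 (exact p = 0.0151) and rho = 0.88 (exact p = 0.00724), and r was 0.70 without these mice. All 3 stayed positive within MS mice alone (0.99, 0.84 and 0.86 for Nr4a1, Npas4 and Btg2) and within Control mice alone (0.85, 0.97 and 0.79, n = 4 each).

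Egr1 and Junb followed less closely. Egr1 had r = 0.72 (exact permutation p = 0.0534) and rho = 0.74 (exact p = 0.0458), but r was 0.45 without MS 7.2 and 7.6. Junb had r = 0.697 (exact p = 0.0619) and rho = 0.52 (exact p = 0.197), and within the slide rows r was 0.90. The Junb probe was dim, and 42.0% of the genes at its level had an SD between mice at least as large. For Npas4 this share was 25.8%, so these 2 genes did not vary unusually widely. Among the 15 pairs of Fos, Nr4a1, Npas4, Btg2, Egr1 and Junb, r was 0.13 to 0.91 with a mean of 0.69, a set picked here for its r with Fos.

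**Figure D4:**
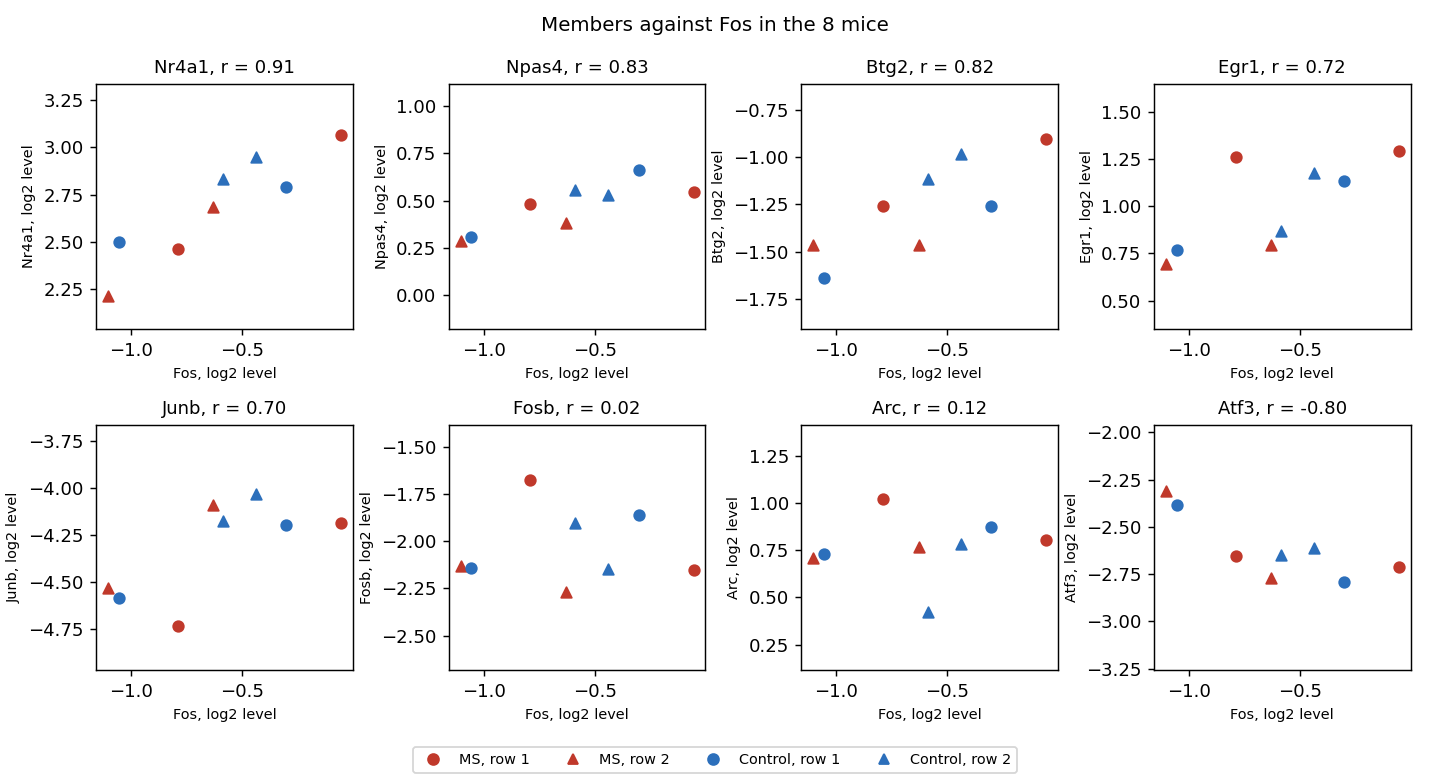
Log2 level of 8 members (vertical axes) against that of Fos (horizontal axes) in the 8 mice, MS in red and Control in blue, with circles for slide row 1 and triangles for slide row 2. Nr4a1, Npas4 and Btg2 line up with Fos across both colors (r = 0.91, 0.83 and 0.82), Fosb and Arc show no slope (0.02 and 0.12) and Atf3 slopes downward (-0.80).

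Among other classical activity genes, Fosb and Arc did not share this order of the mice. Fosb had r = 0.02 with Fos (exact permutation p = 0.971, rho = -0.19) and Arc had r = 0.12 (exact p = 0.806, rho = 0.43). Egr4 had r = 0.49, which was 0.0386 without MS 7.2 and 7.6 and 0.76 without MS 5.3, where Egr4 was high and Fos was not. Egr2 had r = 0.26, Dusp1 had 0.46 and Jun had 0.43. Next to Junb came Ier5 with 0.58 (rho = 0.57) and Dusp6 with 0.54. With MS 7.6 left out Dusp6 had 0.97, and with MS 7.2 left out it had 0.22. The kinase Sik1 had 0.47 (rho = 0.62), with -0.19 without MS 7.2 and 7.6. Whether any of these r differ from those of Egr1 and Junb was not tested. Of the Homer1 probes, 1 of the variant S had r = 0.67 (exact p = 0.0597), and the other 4 probes had 0.25 to 0.29.

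The members that ran against Fos were Atf3 and Jund. Atf3 was at -2.65, -2.77, -2.71 and -2.31 in MS 5.3, 7.1, 7.2 and 7.6 and at -2.61, -2.79, -2.39 and -2.65 in Control 6.2, 8.2, 8.4 and 8.5, so that the mice lowest in Fos, MS 7.6 and Control 8.4, were the highest here. Its r was -0.80 (exact permutation p = 0.0167), rho was -0.67 (exact p = 0.0831), and r was -0.78 without the 2 farthest mice. Jund was at 5.26, 5.10, 5.05 and 5.17 in the MS mice and at 5.03, 5.09, 5.26 and 5.13 in the Control mice, highest in MS 5.3 and Control 8.4. It had r = -0.79 (exact p = 0.0210) and rho = -0.81 (exact p = 0.0218), but r was -0.40 under quantile normalization, -0.43 with normexp and quantile and -0.38 in the authors' table. Maff had r = -0.54.

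**Figure D5:**
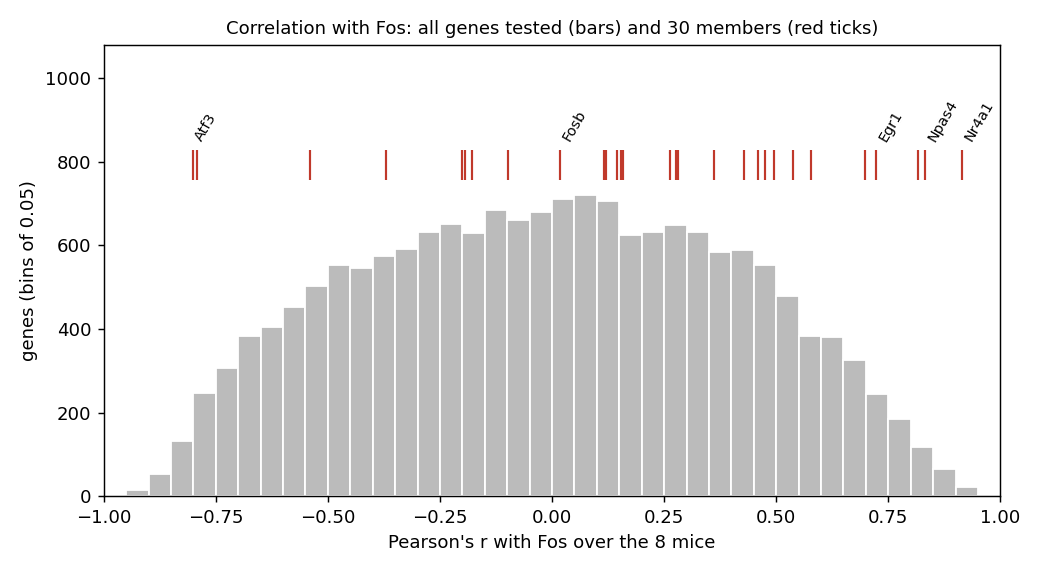
Distribution of Pearson's r with Fos over the 8 mice for all 17308 other genes tested (gray bars, bins of 0.05) and for the 30 other members (red ticks). The members lie on both sides of 0, with 22 above it, and their ticks reach from -0.80 (Atf3) to 0.91 (Nr4a1).

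Outside the members, the 5 genes most like Fos in r over the 8 mice were Nup62 (0.961), Snx4 (0.961), Shcbp1l (0.957), Tent4b (0.956) and Rgsl1 (0.949). Each was above the r of Nr4a1, and the smallest exact permutation p adjusted over all genes was 0.286. The brightness of the array moved in part with Fos. The r of Fos with the log2 75th percentile was 0.66 (exact permutation p = 0.0562, rho = 0.57), and it was 0.0958 without MS 7.2 and 7.6, the brightest and the dimmest array. Of 13 lists of marker genes, none had an r with Fos beyond 0.6 either way over the 8 mice, but without MS 7.2 and 7.6 the choroid plexus list had 0.91 and the endothelium list -0.64. The neuron list had -0.27, the endothelium list -0.58, the list of fibroblasts and meninges -0.57 and the blood list -0.54, and over these 15 relations the smallest adjusted exact p was 0.494. Their part in the pattern was not tested.

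The members as a whole did not form a single block. The mean r over their 465 pairs was 0.0645, against 0.0144 over the pairs of all genes tested. An r over 0.7 was found in 29 pairs (6.24%), where 4.58% of all gene pairs had one, and an r under -0.7 in 14 (3.01%), where 3.75% had one. The first principal component held 27.1% of the variance of the 31 members and the second 26.6%. For all 17309 genes the first held 24.5%. A small set tends to a larger first share by its size alone, and other sets of 31 genes were not examined. The 2 first shares thus do not measure how far the members vary together. Fos, Nr4a1, Npas4, Btg2 and Junb had the largest positive loadings on the first, and Atf3 and Jund the largest negative ones.

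Several pairs away from Fos also had a high r over the 8 mice. Klf6 and the secreted protein Cyr61 had r = 0.94 (exact permutation p = 0.000446, unadjusted), and Klf4 had 0.83 with Klf6 and 0.79 with Cyr61. Klf2 had 0.81 with Cyr61. Control 8.5 was the highest mouse for Klf4, Klf6 and Cyr61. Without it, a choice made after seeing the data, r was 0.88 for Klf6 with Cyr61, 0.66 for Klf4 with Klf6, 0.54 for Klf4 with Cyr61 and 0.91 for Klf2 with Cyr61. The sum of the endothelial markers had an r of 0.55 with Klf2 and of 0.0575 to 0.23 with Klf4, Klf6 and Cyr61. The sum of the markers of fibroblasts and meninges had an r of 0.64 with Cyr61, 0.46 with Klf6, 0.41 with Klf2 and 0.35 with Klf4, and these were -0.46 to 0.03 without the 2 mice farthest from the median of that sum. The adjusted exact p was at least 0.607 over the 8 relations with the endothelium and the meninges. Their part was not tested.

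Fosb and Fosl2 had r = 0.89 (exact permutation p = 0.00491) and were both highest in MS 5.3 and lowest in MS 7.1. Arc and Gadd45b had r = 0.83 (exact p = 0.0121) but rho = 0.52, and both were lowest in Control 8.5, without which r was 0.44. Ier3 and the brightest Homer1 probe, of variant L, had r = 0.90 (exact p = 0.00397), and both were highest in MS 7.1 and lowest in Control 8.5. All other Homer1 probes tested were highest in Control 8.2 and lowest in MS 7.6. Junb and Jund ran against each other with r = -0.93 (exact p = 0.00141). Like the other pairs named, this one was picked for its r, and its p is unadjusted. It was not examined under the other scalings, some of which weakened the r of Jund with Fos. The r of 0.80 between Ier2 and Maff was 0.22 without MS 7.6.

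By mouse, MS 7.2 had 24 of the 31 members above their own mean and the highest value of 9 of them, and it was the lowest mouse for 0. MS 7.1 had 10 above the mean and Control 8.4 had 12. MS 7.6, the dimmest array, was the highest mouse for 5 members and the lowest for 6, so it was not low throughout. On the first principal component of the members, however, it had the lowest score of the mice (-0.582). MS 7.2, the brightest array, had the highest (0.489). The part of array brightness in this order was not tested.

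No other gene of the pathway was called either. Of 20 further activity-induced genes measured, 0 were higher and 0 lower in MS mice by limma, with a median log2 fold change of 0.04. Vgf, a secreted neuropeptide precursor, was at 5.90, 5.80, 5.80 and 6.07 in MS 5.3, 7.1, 7.2 and 7.6 and at 6.25, 6.12, 6.18 and 6.32 in Control 6.2, 8.2, 8.4 and 8.5, so that all MS mice lay below all Control mice. Its difference was -0.33 (-0.51 to -0.14, limma, adjusted p = 0.980). Bdnf, the neurotrophin, was at -0.21, -0.44, -0.27 and -0.40 in the MS mice and at -0.58, -0.36, -0.54 and -0.58 in the Control mice. Its difference was 0.18 (0.00513 to 0.36, limma, adjusted p = 0.980). Rgs2, a regulator of G protein signaling, also had groups that did not overlap, with MS mice at 4.57 to 4.69 and Control mice at 4.53 to 4.55, but its adjusted p was 0.980 by limma. These were 2 of the 20 genes, where 2.03% of all probes had groups that did not overlap. None of these 20 genes had an r with Fos over 0.7, and 1 had an r under -0.7, the prohormone convertase Pcsk1 (-0.73, exact permutation p = 0.0367, adjusted p = 0.638).

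Of the 15 genes upstream of the members, such as Creb1, Srf and the MAP kinases, 0 were called in either direction. The smallest p with a negative value was that of Camk2a, a calcium-dependent kinase (-0.27, -0.57 to 0.04). Camk4, a kinase that acts on CREB, was the one of these 15 with an r with Fos over 0.7 (0.76, exact permutation p = 0.00918, rho = 0.52, adjusted p = 0.638). Mapk3, which encodes ERK1, ran against Fos (-0.83, exact permutation p = 0.00630, rho = -0.76, adjusted p = 0.638). Among 9 genes that glucocorticoids induce, of which Per1 and Cdkn1a also stand in the list of activity-induced genes, 0 were called, with Tsc22d3 at a difference of 0.13 (-0.07 to 0.33) and Pdk4 at -0.01 (-0.31 to 0.28). Of 5 heat shock genes measured, 0 were called and all were above 0, where 56.4% of all genes tested were above 0. Dnajb1 was at 0.24 (-0.02 to 0.49).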

How the data were processed

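The arrays of 8 HT were analysed, 4 of the MS and 4 of the Control group, with groups taken from the labels. The authors deposited the scanner output, made with Agilent Feature Extraction 10.10.1.1, in which each spot has a processed intensity after subtraction of background. A second deposited file, used as an alternative, holds log2 values, and the sources used here do not state its normalization. The file headers name the build mm9 and an array design other than the one in the methods.

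In R 4.3.3 with limma 3.58.1, control spots and outlier spots were left out and the mean log2 processed intensity of the spots of each probe was taken (59305 spots, 55681 probes). Values were scaled to the 75th percentile of the array. The 37313 probes that 4 or more of the 8 arrays detected well above background were tested with lmFit and eBayes, two-sided, with Benjamini-Hochberg adjustment at 0.05. The brightest tested probe stood for a gene, named by accession or symbol in a RefSeq table. Correlations used all 40320 orders of the 8 mice. Scripts were tested on simulated data. The number of arrays, 4 a group, limits the precision.

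The members and the lists were chosen with earlier results of these data known. Values per mouse are given for 13 members fixed by name, for the members of smallest p in each direction and of largest and smallest SD, and for Atf3, Jund, Vgf and Bdnf. These 4, and Rgs2, Pcsk1 and Mapk3, of which only a range or r is given, were chosen after their values were seen. From other lists, the genes of smallest p with a positive and a negative value are given, except 1 gene that is not reported here. The alternatives were other scalings, background corrections and filters, the authors' table, the mean of a gene's probes, the slide row or the number before the dot as a block, array weights and leaving out each mouse.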

Additional observations from a re-analysis of the deposited data

Results flagged for a closer look

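Within a group of 4 mice, a single mouse lay far from the other 3 in 3 of the 62 sets of values (31 members in 2 groups), where chance alone gives about 3.1. All 3 concerned Control 8.5. It was at 0.55 for Homer1, against 0.61 to 0.62 in the other Control mice, at 2.44 for Klf6, against 2.20 to 2.23, and at -1.14 for Gadd45b, against -0.72 to -0.67. The high value of Ier2 in MS 7.6 did not pass the same limit.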

How the results depend on the processing

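Under all alternatives run, 0 members were called between MS and Control mice and 0 were called for their correlation with Fos. The count for Fos says little, since the exact test over so few mice could hardly call a gene after adjustment. The median log2 fold change of the members was 0.01 to 0.06. The number of members with an r with Fos over 0.7 was 3 to 6. Leaving out each mouse in turn, 0 to 1 members had groups that did not overlap (Inhba without MS 7.1, and Dusp4 without MS 7.2 or without Control 8.5). With 7 mice, groups fail to overlap more easily than with all 8, and the share over all probes was not counted there. These cases are thus no result about the 2 genes. The mean pairwise r of the members was 0.0154 to 0.0907 when each mouse was left out, lowest without MS 7.2 and highest without MS 7.6. The share of the first component was 28.7% to 33.1% with 7 mice and 25.2% without a filter on dim probes. It was 29.0% for residuals from the group means and 31.9% for residuals from the slide row means. With a mouse left out or means subtracted, fewer components remain, which by itself raises the share of the first. Of 310 log2 fold changes of members under other settings with all 8 mice, 27 changed sign. None of the 27 had a size over 0.0814 before. The other filters kept the same probes and the slide row as a block was balanced, so these settings could not change a sign. The count of 310 includes them. Of 300 correlations with Fos, 8 changed sign, the largest of which had a size of 0.37 before. The other filters could not change these values either. The L probe of Homer1 had an r of 0.28 with Fos, but 0.77 with normexp and quantile and 0.82 in the authors' table, and Jund went the other way, as given above. The cause was not tested. No paired analysis was possible because the groups share no replicate numbers. Within the slide rows, 2 MS and 2 Control mice were compared, and Fos differed by 0.26 in row 1 and by -0.35 in row 2.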
